A study of Bos taurus with 60 samples.

Results

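The endometrium of 21 low-plane heifers with a high level of MX2 transcript was compared between 11 heifers supplemented with n-3 PUFA and 10 control heifers. They were taken from the 29 heifers on the low plane of nutrition, in a study of 60 crossbred beef heifers. A heifer was a member when log2(CPM + 1) of MX2 (ENSBTAG00000008471) was above 5.5, with CPM the counts scaled to a common library total (1e+06). The members were thus selected on the measured level of MX2, which is given below as a description with no test. Genes carry Ensembl identifiers without symbols in the table, so MX2 is named as in the rule and other genes by identifier.

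All heifers were nulliparous, had synchronised oestrous cycles and were inseminated. They received either a concentrate diet with a fish oil based supplement rich in n-3 PUFA (PUFA) or a control diet with a rumen-protected palmitic acid source (CON) for 30 days before insemination. After it they either stayed on that high plane (High) or were restricted below maintenance, with the lipid supplement continued (Low), for 16 days, when endometrium was taken at slaughter from the uterine horn on the side of the corpus luteum. The comparison here is PUFA_Low against CON_Low. By the titles there were 15 PUFA_Low, 14 CON_Low, 17 PUFA_High and 14 CON_High heifers, whereas the design text gives the sizes of both n-3 PUFA groups the other way round. The titles were followed. The group sizes stated in the methods of the study are those of the titles. The pregnancy counts given there for the n-3 PUFA groups add up to the sizes the other way round. The pregnancy status of single heifers is not in the labels and was not used.

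Interferon tau is secreted by the elongating ruminant conceptus around the time of maternal recognition of pregnancy and acts on the endometrium, where it prevents the release of luteolytic prostaglandin F2α pulses. It induces a large set of interferon-stimulated genes, among them MX2, a dynamin-like GTPase of the antiviral response. n-3 PUFA are substrates that compete with arachidonic acid for prostaglandin synthesis and are ligands of nuclear receptors such as the PPAR family, which is why the supplement is studied at this stage. A high MX2 level is thus a sign of interferon exposure, and it is not by itself a pregnancy diagnosis.

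The MX2 levels of low-plane heifers fell into a high and a low cluster, with no heifer near the threshold. The nearest value below it was 3.78 on the log2 scale and the nearest above it was 7.20. In PUFA_Low heifers the 11 members ranged from 7.20 to 11.1, with a median of 9.73. In CON_Low heifers the 10 members ranged from 7.85 to 11.1, with a median of 10.1. The ranges overlapped, and 3 PUFA_Low members (7.20, 7.35 and 7.57) lay below every CON_Low member. The other 4 heifers of each low-plane group lay between 2.43 and 3.78. On the high plane 14 of 17 PUFA_High and 11 of 14 CON_High heifers were above the threshold, between 8.21 and 11.2.

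**Figure D1:**
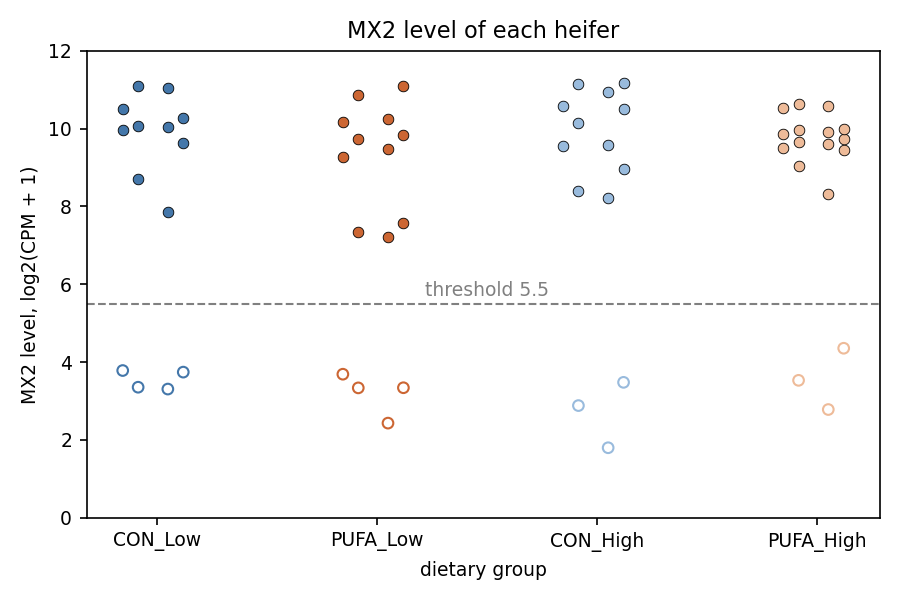
MX2 level of each of the 60 heifers as log2(CPM + 1), by dietary group; filled points lie above the dashed threshold of 5.5 and open points below it. Each group splits into a high cluster and a low cluster, and 3 PUFA_Low heifers at 7.20, 7.35 and 7.57 sit below the lowest high-cluster CON_Low heifer at 7.85.

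The label of interferon-high rests on MX2, and the other interferon-stimulated genes could not be looked up by name. As a check, 73 further genes were taken whose log2(CPM + 1) had a correlation above 0.9 with that of MX2 over the 31 high-plane heifers. Those heifers themselves lay in a high and a low MX2 cluster. The correlations did not use the low-plane heifers. The candidates, however, were the genes tested in the low-plane members, so the choice was not fully independent of them. The summed level of the 73 genes ranged from 6112 to 38264 CPM in PUFA_Low members and from 10135 to 36327 CPM in CON_Low members. In the 8 low-plane heifers below the threshold it ranged from 2673 to 3356 CPM, so the members did not overlap with these heifers. Within the members, the log2 fold change of PUFA_Low against CON_Low was below 0 for 62 of the 73 genes (84.9%), beside 52.0% of all genes tested. Its median was -0.24, its range -0.83 to 0.36, and none of the 73 had an adjusted p under 0.10. For MX2 itself the log2 fold change was -0.20 (standard error 0.438). Without the 3 PUFA_Low members lowest in MX2 it was 0.19. Leaving out the lowest values of 1 group raises its mean by itself, so nothing is concluded from that rise. These genes move with the measure that chose the heifers, so their values are a description.

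Library depth was alike in the members, with 9712703 to 13144584 counts on genes in CON_Low and 10450141 to 12937130 in PUFA_Low (adjusted p = 0.971, two-sided permutation test with 100000 resamples, over 3 library measures). The composition of the libraries was not. The 100 most abundant genes of each library held 22.4% to 31.7% of all counts in PUFA_Low members (26.7% ± 3.32, SD, n = 11) and 19.8% to 26.2% in CON_Low members (21.7% ± 1.93, SD, n = 10). The means differed by 4.98 percentage points (permutation test, adjusted p = 0.00204), and the ranges of the groups overlapped. In 5 PUFA_Low members the share was above that of every control, and in 7 CON_Low members it was below that of every PUFA_Low member. The number of genes with at least 1 count was 16562 ± 91.5 in PUFA_Low members and 16739 ± 141 in CON_Low members (SD, n = 11 and 10), lower by 178 genes on average (permutation test, adjusted p = 0.00558). These measures move with the results below, and their values are given there.

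**Figure D2:**
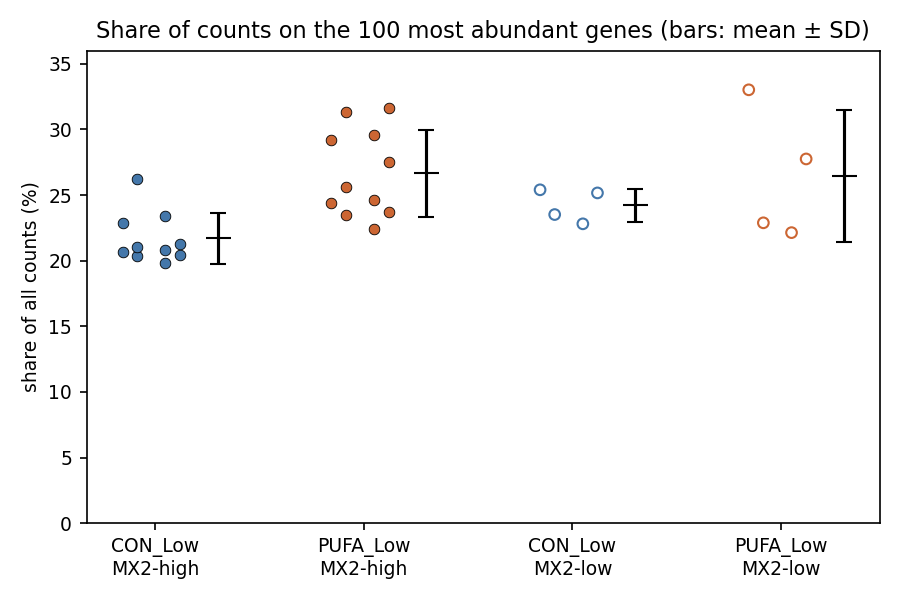
Share of the counts, in percent, taken by the 100 most abundant genes of each low-plane library; filled points are members, open points the heifers below the MX2 threshold, bars the mean and SD. PUFA_Low members centre on 26.7% and CON_Low members on 21.7%, with ranges that overlap between 22.4% and 26.2%.

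Which endometrial genes differed with n-3 PUFA in restricted heifers with a high MX2 level was asked by testing 13864 genes in the 21 members. Differentially expressed genes (DEG) were those with a fold change above 1.5 and an adjusted p-value below 0.10 (edgeR's quasi-likelihood test, Benjamini-Hochberg over all genes tested). There were 610 DEG (4.4% of the genes tested), of which 313 were at higher abundance with n-3 PUFA (2.26%) and 297 at lower abundance (2.14%). The changes were moderate in size, with a median log2 fold change of 0.73 among the higher and -0.70 among the lower DEG, beside -0.016 for all genes tested. A change above 2-fold was seen for 49 higher and 29 lower DEG, and a change above 4-fold for 3 and 4. Many more genes differed by less than the fold limit, and 3170 (22.9%) had an adjusted p-value under 0.10 at any fold change. The methods of the study state a stricter false discovery rate, 0.001, at the same fold limit. The smallest adjusted p-value was 0.0108 with edgeR, where 0 genes reached the rate of 0.001. With DESeq2 the smallest was 8.54e-06, and 133 genes reached that rate at a fold above 1.5 (106 higher and 27 lower). With the n-3 PUFA planes exchanged, as the group sizes in the design text would allow, 0 DEG were found (edgeR, smallest adjusted p-value 0.334, 971 genes at an unadjusted p under 0.05; no other tool was run), so the result rests on the plane given in the titles.

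Higher DEG outnumbered lower DEG among abundant transcripts, and lower DEG outnumbered higher DEG among scarce ones, as counts with no test of the difference. The median abundance was 46.0 CPM for the higher DEG and 9.25 CPM for the lower DEG, beside 23.1 CPM for all genes tested. Of 110 genes above 1000 CPM, 43 were higher DEG (39.1%) and 1 was a lower DEG (0.909%). Between 100 and 1000 CPM there were 80 higher (4.18%) and 27 lower DEG (1.41%) among 1912 genes. Between 1 and 10 CPM the order was turned, with 88 higher (2.18%) and 152 lower DEG (3.77%) among 4032 genes. In between, at 10 to 100 CPM, 101 higher and 117 lower DEG were found among 7800 genes. The median log2 fold change lay higher in each class from there on, from -0.056 at 1 to 10 CPM to 0.43 above 1000 CPM.

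**Figure D3:**
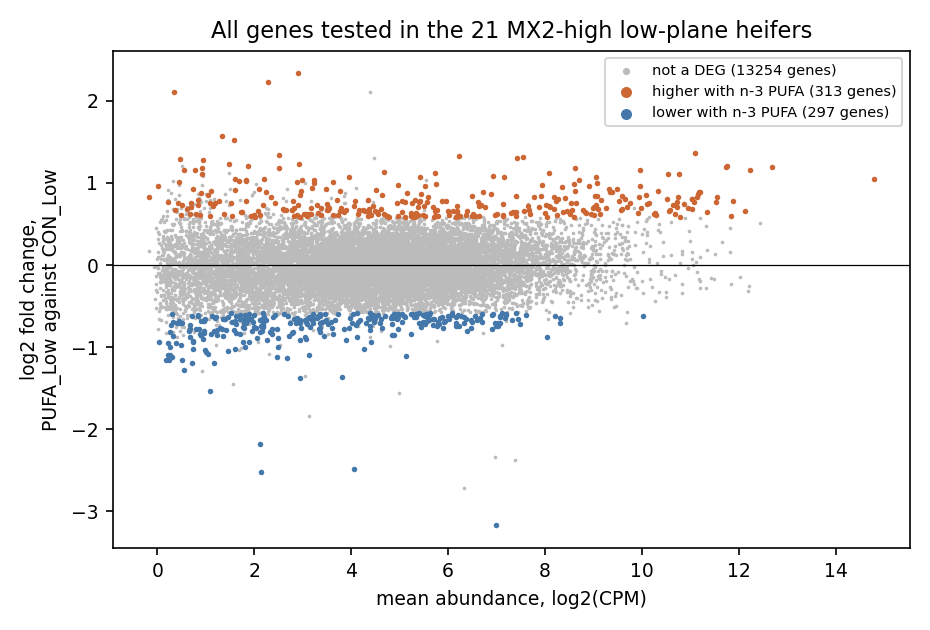
Log2 fold change of PUFA_Low against CON_Low members (vertical axis) against mean abundance as log2(CPM) (horizontal axis) for the 13864 genes tested; orange points are the 313 higher and blue points the 297 lower DEG, grey points all others. The orange points extend to the most abundant genes at the right, where blue points are nearly absent.

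The 100 most abundant genes over the members included 39 higher DEG and no lower DEG. With the fold limit set aside, 52 of them were higher and 2 lower at an adjusted p under 0.10, and their median log2 fold change was 0.42. Together the 100 genes held 26.1% of counts in PUFA_Low and 21.1% in CON_Low members on average. Of that difference of 4.94 percentage points, the 10 genes with the largest differences made up 3.53 points. The mean share was larger for 63 of the 100 genes and smaller for 37, the most negative difference being -0.145 points. With these 100 genes removed and the totals recomputed, 557 DEG were found, 275 higher and 282 lower, and 554 of them were among the 610.

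Levels between heifers were slightly more spread in the PUFA_Low members, as a description with no test. The SD of log2(CPM + 1) had a median over genes of 0.293 in PUFA_Low and 0.283 in CON_Low members, and it was larger in PUFA_Low for 55.2% of the genes tested. No DEG separated the 11 PUFA_Low from the 10 CON_Low members completely, and of all genes tested 0.0216% did so. Of the 610 DEG, 299 (49.0%) were called in each of the 21 fits that left out 1 heifer, 168 of them higher and 131 lower.

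How the heifers lay is shown for 4 DEG, those of smallest p in either direction. ENSBTAG00000010012 ranged from 444 to 886 CPM in PUFA_Low members (median 627, n = 11) and from 310 to 479 CPM in CON_Low members (median 402, n = 10). All but 1 of the supplemented heifers were above the highest control, and 8 of the 10 controls were below the lowest supplemented heifer. Its log2 fold change was 0.70 (standard error 0.122, adjusted p = 0.0108, edgeR's quasi-likelihood test). ENSBTAG00000034185, the other higher DEG, ranged from 33.1 to 121 CPM in PUFA_Low (median 67.1) and from 18.2 to 45.8 CPM in CON_Low members (median 33.2). Here too 10 of 11 supplemented heifers lay above every control, and the remaining heifer, PUFA_Low replicate 4, was the lowest of its group for both genes. The log2 fold change was 1.12 (standard error 0.198, adjusted p = 0.0108).

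Among the lower DEG, ENSBTAG00000009362 ranged from 42.9 to 82.6 CPM in PUFA_Low members (median 50.5) and from 67.0 to 119 CPM in CON_Low members (median 106). The controls were higher, with 7 of 10 above every supplemented heifer and 7 of 11 supplemented heifers below every control. Its log2 fold change was -0.74 (standard error 0.134, adjusted p = 0.0108, edgeR). ENSBTAG00000039794 was a scarce transcript, at 2.39 to 7.63 CPM in PUFA_Low (median 3.82) and 4.66 to 13.1 CPM in CON_Low members (median 8.68). Of the supplemented heifers 9 of 11 lay below every control, and the log2 fold change was -1.14 (standard error 0.207, adjusted p = 0.0108, edgeR). The products of these 4 genes are not named here.

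Library codes in the labels start with 1 of 6 prefixes that are left unexplained. PUFA_Low and CON_Low members were both present in 5 of them, at 1 to 3 heifers per group. The direction of each of the 4 genes was the same in all 5 prefixes, 20 of 20 comparisons. Since the 4 genes were picked by their p-values in these same heifers, that count is a description. The share of the 100 most abundant genes was higher in PUFA_Low in all 5. With the prefix as a block in the model, 544 DEG were found (312 higher and 232 lower), 437 of them among the 610.

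**Figure D4:**
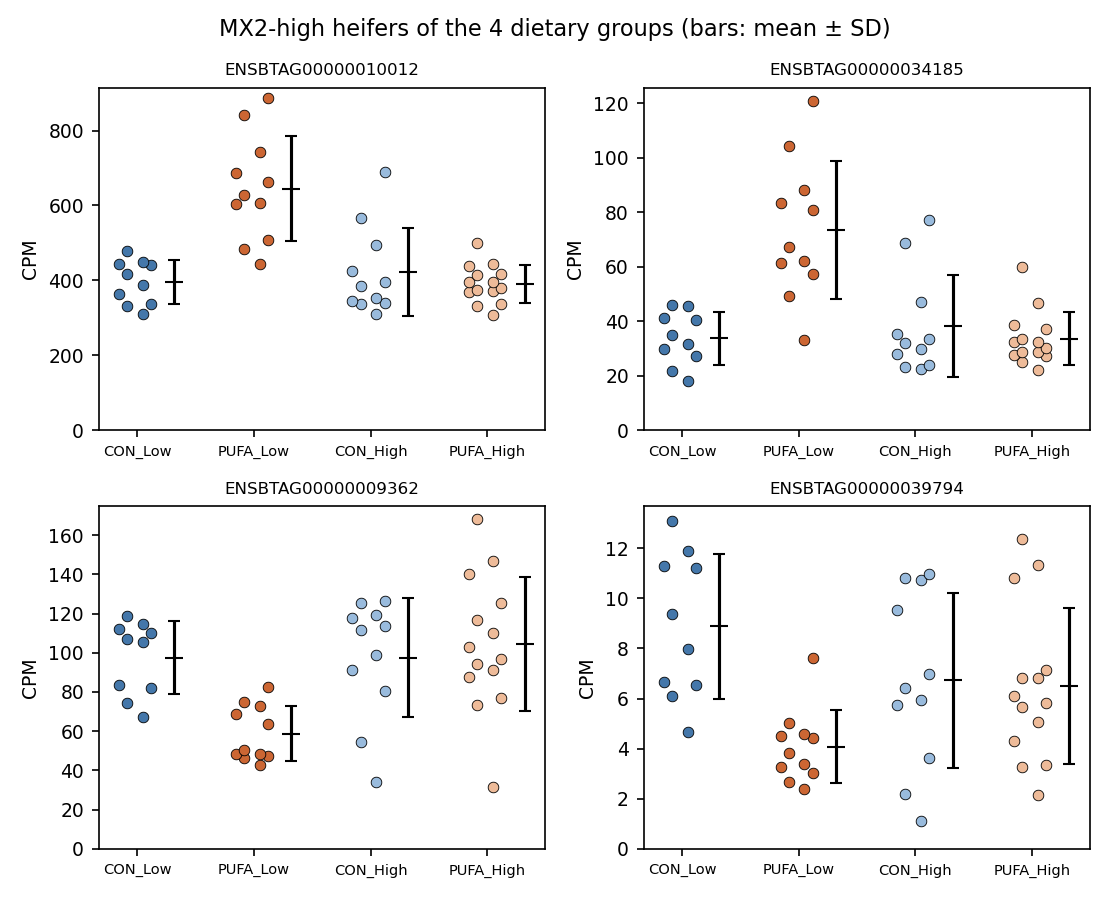
CPM of the 4 DEG given by identifier in the MX2-high heifers of all 4 dietary groups; points are heifers, bars the mean and SD. In the upper panels PUFA_Low lies above CON_Low (medians 627 against 402 CPM and 67.1 against 33.2 CPM), and in the other panels it lies under CON_Low (50.5 against 106 CPM and 3.82 against 8.68 CPM), while the high-plane groups overlap each other.

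Whether the n-3 PUFA difference was particular to the low plane was tested with the 25 MX2-high heifers of the high plane added. In 14 PUFA_High and 11 CON_High heifers 0 of 14355 genes were DEG (edgeR, smallest adjusted p-value 0.877, 689 genes at an unadjusted p under 0.05, and 0 DEG with DESeq2). The difference between the planes, tested as an interaction in 1 model over the 46 heifers, involved 986 DEG (6.87% of the genes tested), with 557 more positive on the low plane (3.88%) and 429 more negative (2.99%). It was 501 without CON_High replicate 11. For ENSBTAG00000010012 the log2 fold change was -0.10 on the high plane and the interaction 0.80 (standard error 0.162, adjusted p = 0.0151, edgeR). The interaction was 1.30 (standard error 0.281, adjusted p = 0.0151, edgeR) for ENSBTAG00000034185, -0.85 (standard error 0.264, adjusted p = 0.0403) for ENSBTAG00000009362 and -1.09 (standard error 0.392, adjusted p = 0.0699) for ENSBTAG00000039794. These 4 genes were picked by their low-plane p-values in heifers that also enter the interaction, so their interaction p-values are too small and serve as a description.

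The 610 DEG were then followed in heifers that had no part in choosing them, as a description. On the high plane, 259 of the 313 higher DEG had a log2 fold change below 0 with n-3 PUFA, with a median of -0.16, beside 51.0% of all genes below 0. The 297 lower DEG had a median of 0.053 there, with 119 below 0. These values rested largely on CON_High replicate 11. Without it 177 of the higher DEG were below 0 (median -0.018) and 161 of the lower DEG (median -0.024), beside 48.8% of all genes. In the low-plane heifers below the MX2 threshold, 4 of each supplement group, 255 of the 313 higher DEG were above 0 (median 0.48) and 239 of the 297 lower DEG were below 0 (median -0.28), beside 50.9% of all genes below 0. The median of the higher DEG was 0.21 without PUFA_Low replicate 10, and that of the lower DEG was -0.16 without that heifer, -0.15 without PUFA_Low replicate 8 and -0.48 without PUFA_Low replicate 9. No gene was a DEG in that comparison (edgeR, smallest adjusted p-value 0.915, 737 of 14946 genes at an unadjusted p under 0.05; no other tool was run). The low-plane directions were thus mostly the same on both sides of the MX2 threshold, and the test of a difference across the threshold was not run, since the threshold is itself a measured level.

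For each heifer the mean log2(CPM + 1) of the higher DEG minus that of the lower DEG was taken as the level of the DEG. It ranged from 2.11 to 3.33 in PUFA_Low members (median 2.69) and from 0.977 to 2.39 in CON_Low members (median 1.40), on which the DEG had been chosen. In the PUFA_Low heifers below the threshold it was 1.63, 1.85, 2.77 and 3.13, and in the matching CON_Low heifers 1.56, 1.71, 1.77 and 1.94. Of these PUFA_Low heifers 2 of 4 lay above all 4 controls, and the other 2 lay among them. The 100 most abundant genes held 27.8% and 33.0% of counts in the 2 above the controls and 22.9% and 22.1% in the other 2. In the 4 controls they held 22.8% to 25.4%. The level was not tied to the diet in every heifer, and the highest of all 60, 3.67, was found in CON_High replicate 11, whose 100 most abundant genes held 29.3% of its counts. The level and the share are not separate measures, since 39 of the 100 most abundant genes over the members were higher DEG. Their relation was not tested.

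**Figure D5:**
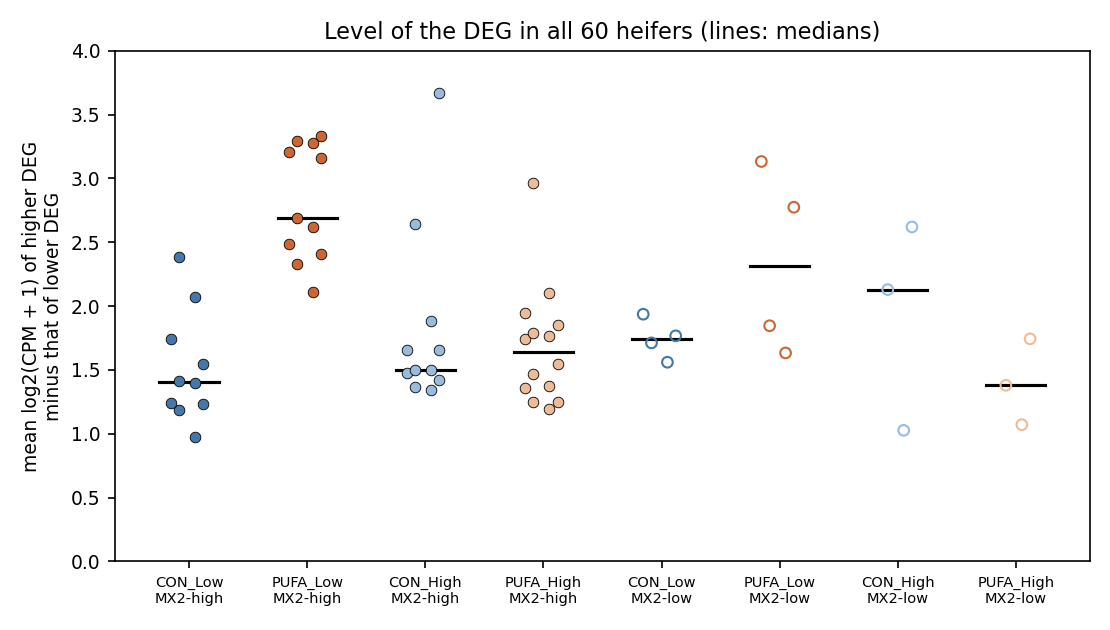
Mean log2(CPM + 1) of the 313 higher DEG minus that of the 297 lower DEG in each of the 60 heifers, by dietary group and MX2 class; lines are medians. PUFA_Low members (median 2.69) lie above most other heifers, and single heifers of other groups reach the same level, the highest being a CON_High heifer at 3.67.

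In a model of the 21 members that also held the share of the 100 most abundant genes, 0 DEG were left (edgeR, smallest adjusted p-value 0.831, 809 genes at an unadjusted p under 0.05). A model that held the number of detected genes instead left 0 DEG too (edgeR), with 1553 genes at an unadjusted p under 0.05 and a smallest adjusted p-value of 0.109. The log2 fold changes of the 4 genes kept their sign and became 0.25, 0.40, -0.36 and -0.97 with the share as a covariate, and 0.53, 0.76, -0.55 and -0.72 with the number of detected genes. Both measures come from the same counts and differ between the groups, so the supplement and these measures cannot be told apart in this design. Markers of epithelium, stroma, muscle, vessels and leukocytes could not be looked up by name, and in bulk tissue fewer cells of a type and less RNA per cell cannot be told apart.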

How the data were processed

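For each heifer the authors deposited raw counts of single-end reads per Ensembl gene, without normalization, made with TopHat2 2.0.9 on UMD3.1 and HTSeq 0.5.4p5 per the submitters' processing notes. Strand setting and handling of multi-mapping reads are not given in the sources used here. The members and gene lists were chosen with earlier results of these data known. The counts of 24616 genes were filtered with filterByExpr, scaled by TMM and tested with edgeR 4.0.16 in R 4.3.3, with DESeq2 1.42.0 as an alternative. The standard error was the absolute log2 fold change over the square root of F. CPM levels use TMM factors over all 60 heifers, except for MX2, where the rule uses plain library totals. Heifers are the replicates, at 9635801 to 13943813 counts each. The genes to be named were 12 DEG per direction of smallest p that have a symbol, genes of the paper's text and members of fixed pathway and marker lists. Where identifiers cannot be paired with symbols, the rule takes 2 DEG per direction, those of smallest p, by identifier. The gene table used (assembly ARS-UCD2.0) pairs 0 identifiers, so that second rule was used and no list was counted. The 73 genes that follow MX2, the removal of the 100 most abundant genes, the level of the DEG and an MX2 threshold of 7.7 were chosen after seeing the data. On simulated counts for the 21 members (13790 genes tested), 73.1%, 86.6% and 95.5% of genes changed 1.75-, 2- and 3-fold were called, and 10 unchanged genes. These counts were drawn independently for each gene, with 200 genes changed and no other group difference set. The libraries of the members differed in composition, so the 10 calls do not give the error rate of the real comparison. No pair of members of a group agreed within sampling noise (smallest chi-square per gene 23.0).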

Additional observations from a re-analysis of the deposited data

Results flagged for a closer look

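The n-3 PUFA effect in MX2-high heifers differed between the planes of nutrition by the interaction test, with 986 DEG. That number was 0 with the share of the 100 most abundant genes as a covariate and 268 with the number of genes detected. It was 501 without CON_High replicate 11. Without a covariate, the interaction test gave log2 differences of 0.80 for ENSBTAG00000010012, 1.30 for ENSBTAG00000034185, -0.85 for ENSBTAG00000009362 and -1.09 for ENSBTAG00000039794 (adjusted p from 0.0151 to 0.0699, edgeR). These genes were picked by their low-plane p-values, so that their interaction p-values are too small. No low-plane heifer stood apart from its group in the 33 sets of 4 or 10 values examined by Dixon's test. The critical values used ended at sets of 10, so the 11 PUFA_Low members were not examined.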

How the results depend on the processing

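The alternatives were other scale factors and filters, robust estimation, DESeq2, the prefix block, the MX2 level as a covariate and models over more heifers. Under these the 610 DEG between the supplements stayed between 516 and 720, and the interaction between 780 and 1132 where they were run. With the MX2 level as a covariate 703 DEG were found, 516 of them among the 610. The interaction was 1155 over all 60 heifers, whatever their MX2 level. The high-plane comparison gave 0 DEG under every alternative run. MX2 thresholds of 5 and 6 select the same heifers, and 7.7, chosen after seeing the data, gave 826 DEG. The threshold of 7.7 leaves out the 3 PUFA_Low members lowest in MX2 and no CON_Low member. Over all low-plane heifers, whatever their MX2 level, 375 DEG were found (227 higher and 148 lower), 327 of them among the 610. At any fold change there were 3170 and, for the interaction, 2206; an adjusted p under 0.05 left 653 for the interaction, and one under 0.001 left 0 and 0 with edgeR but 133 and 2 with DESeq2 (added after seeing the data). The share of the 100 most abundant genes as a covariate left 0 and 0 (809 and 414 genes at an unadjusted p under 0.05), and the number of genes detected 0 and 268. With the n-3 PUFA planes exchanged the counts were 0 and 66. With 1 heifer left out at a time, the DEG numbered 469 (without CON_Low replicate 14) to 888 (without CON_Low replicate 2) and the interaction 501 (without CON_High replicate 11) to 1435 (without PUFA_High replicate 4). The difference in share then lay between 4.479 and 5.48 percentage points, in genes detected between -204.1 and -154.3, and in total count between -202900 and 178400, with 8 of the 21 changing sign. The cause of these shifts was not tested.

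Replicate numbers do not pair the heifers. The deviations of same-numbered heifers had a mean correlation of -0.085 over 7 numbers, 1 of them over 0.1, and 0 PUFA_Low members correlated best with their own number. The replicate block, on the 14 low-plane members that share a number, gave 906 DEG. The same heifers without the block gave 1226 (an alternative added after seeing the data). For the interaction the block gave 1564, on only 16 heifers with 4 numbers found in all 4 groups. No fit of those 16 heifers without the block was run.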
